A study of Rattus norvegicus with 7 samples.

Results

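The 9 genes described here are Park7, Lrrk2, Uchl1, Vps35, Atp13a2, Synj1, Dnajc6, Mapt and Vps13c, which cause or have been linked to inherited parkinsonism in people. They were taken by symbol from the 14702 genes of the authors' deposited table, in which each of the 9 symbols occurs once, and Pink1 itself is not among them. RNA was sequenced from the thyroarytenoid muscle, the main mass of the vocal fold, in 7 Long Evans rats, all females of 8 months. The 4 wild-type (WT) rats were compared with 3 rats labelled Pink1-/-, which lack both working copies of Pink1, and the groups share strain, sex and age. The labels do not describe the deleted part of the gene, and cells were not sorted, so each library holds RNA of every cell type in it. Only the authors' comparison of the 2 groups was analysed, not values per rat, so library depths are unknown here and no value can be given rat by rat.

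Pink1 encodes a kinase that gathers on damaged mitochondria and starts their removal by mitophagy. The other genes of inherited parkinsonism act at several points around mitochondria and membranes: DJ-1, the product of Park7, guards against oxidative damage, Lrrk2 phosphorylates Rab GTPases, Vps35, Vps13c and Atp13a2 serve endosomes and lysosomes, Synj1 and Dnajc6 help strip clathrin from endocytosed vesicles, and Mapt encodes the microtubule-binding protein tau. Several of them are known mainly from neurons, and a muscle sample holds neurons mainly as nerve fibres and any ganglion cells taken with it.

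Of the 9 genes, 1 rose in Pink1-/- muscle and none fell at an adjusted p under 0.05 by the authors' edgeR likelihood ratio test. Over all genes 3.05% were called at that threshold in the authors' deposited table, 1.37% higher and 1.68% lower, so the count of 1 in 9 (11.1%) rests on a single gene. The gene that rose was Park7. Log2 fold changes were above 0 for 6 of the 9 genes, beside 7051 of all 14702 genes. The median log2 fold change of the 9 was 0.026 beside -0.02 over all genes in the authors' deposited table. With no adjustment, 3 of the 9 genes had a p under 0.05 in the authors' deposited table, Park7 higher and Uchl1 and Dnajc6 lower, against 17.0% of all genes. The targeted gene was 30.1-fold lower in Pink1-/- muscle in the authors' deposited table, and its implied level went from 269 CPM (counts scaled to a common library total) to 8.94 CPM. In bulk muscle, fewer cells of a type and less RNA per cell cannot be told apart.

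**Figure D1:**
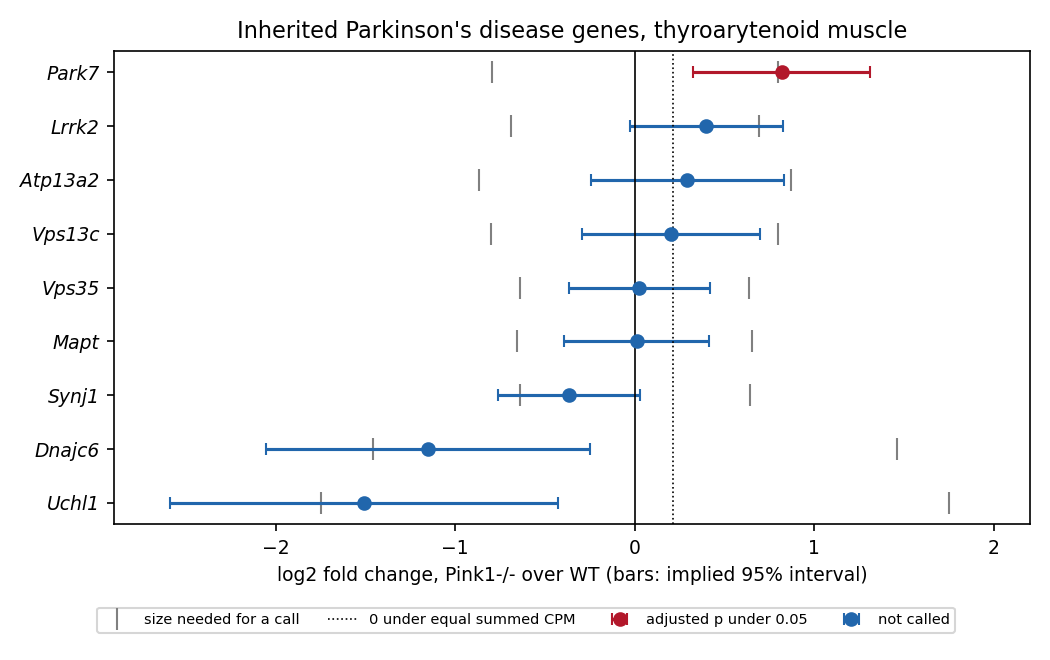
Log2 fold change of Pink1-/- over WT for the 9 genes (points, with the implied 95% interval as bars); grey ticks mark the size each gene would have needed to be called, and the dotted line marks where 0 would lie if the summed CPM of the genotypes were equal. Park7 at 0.82 is the only point beyond its tick at 0.80, and Uchl1 at -1.51 and Dnajc6 at -1.15 have the widest bars.

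Park7 (ENSRNOG00000018289) encodes DJ-1, a small redox-sensitive protein whose recessive loss causes early parkinsonism. Its implied mean was 87.9 CPM in WT against 155 CPM in Pink1-/- muscle. It rose 1.76-fold, a log2 fold change of 0.82 (adjusted p 0.0415) in the authors' deposited table. The standard error (SE) implied by the deposited likelihood ratio was 0.25, and the implied 95% interval ran from 1.25-fold to 2.48-fold. With that SE a log2 fold change of 0.80 was the least that could be called, so Park7 passed by a narrow margin. As deposited, CPM summed over all genes was higher in Pink1-/- muscle, and scaling that made these sums equal would lower each log2 fold change by 0.21. The call of Park7 ended under that scaling (log2 fold change 0.61, adjusted p 0.129). It also ended (adjusted p 0.730) when each likelihood ratio was divided by 1.96, the factor by which the median ratio of all genes exceeded that of a chi-square distribution.

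Uchl1 (ENSRNOG00000002343) encodes a ubiquitin hydrolase that is among the most abundant proteins of neurons, and its link to parkinsonism in people rests on little evidence. Its implied mean was 8.00 CPM in WT against 2.82 CPM in Pink1-/- muscle, 2.84-fold apart. The log2 fold change was -1.51 (adjusted p 0.109) in the authors' deposited table, so Uchl1 did not pass the test. Its implied interval ran from 1.34-fold to 6.01-fold lower. Its implied SE of 0.55 was 1.63 times the median SE of the 1922 genes within 0.5 log2 CPM of it, and a log2 fold change of 1.75 in size would have been needed for a call. Under scaling to equal summed CPM Uchl1 was called lower, at -1.72 (adjusted p 0.0452).

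Park7 and Uchl1 had the highest and the lowest log2 fold change of the 9 genes, and the stretch of DNA around their start sites is shown for that reason. RefSeq promoter windows of the rat assembly GRCr8, from 250 bases before to 50 bases after a start, were found for 7 of the 9 genes, in 11 windows. Capitals mark the letters of any searched motif. The motifs, each sought on both strands, were GCGCATGC (the core recognised by nuclear respiratory factor 1, NRF1), TCAAGGTCA (estrogen-related receptor element), CACGTG (E-box), GGGCGG (GC box) and TTCAGCACC (one side of the REST site). They were chosen with the sequences in view.
Park7, first of 3 windows, chr5:166655135-166655434, minus strand: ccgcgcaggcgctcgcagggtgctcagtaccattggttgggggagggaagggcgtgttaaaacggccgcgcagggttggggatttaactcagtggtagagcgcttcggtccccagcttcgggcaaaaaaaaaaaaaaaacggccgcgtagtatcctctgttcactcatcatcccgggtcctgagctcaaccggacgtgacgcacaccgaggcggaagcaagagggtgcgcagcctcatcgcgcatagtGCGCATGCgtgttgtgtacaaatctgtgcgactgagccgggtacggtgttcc
Uchl1, its 1 window, chr14:41849368-41849667, minus strand: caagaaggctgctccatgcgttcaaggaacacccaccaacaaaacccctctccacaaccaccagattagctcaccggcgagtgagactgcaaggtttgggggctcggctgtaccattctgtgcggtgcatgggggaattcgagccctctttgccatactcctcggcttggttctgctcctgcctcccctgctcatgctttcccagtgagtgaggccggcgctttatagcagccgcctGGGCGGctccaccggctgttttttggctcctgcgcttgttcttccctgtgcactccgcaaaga
The capitals in this Park7 window are 1 NRF1 core, a match that lies in 2 overlapping Park7 windows and in 2.47% of all 33469 windows. The capitals in the Uchl1 window are 1 GC box, which 33.1% of all windows hold. The GC box was in 8 of the 11 windows of the 9 genes, including the other 2 of Park7. No window of the 9 genes held the estrogen-related receptor element, the E-box or the REST letters, which are in 0.433%, 6.42% and 0.356% of all windows. A match is only a run of letters, and binding was not measured.

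Lrrk2 (ENSRNOG00000004048), the kinase whose dominant mutations are a frequent cause of inherited parkinsonism, had an implied mean of 54.7 CPM in WT against 72.1 CPM in Pink1-/- muscle. Its log2 fold change was 0.40 (adjusted p 0.339) in the authors' deposited table, and the implied interval ran from -0.03 to 0.83, so a change of up to 1.77-fold upward was within the error. Lrrk1, its closest relative, had a log2 fold change of -0.44 (adjusted p 0.427) in the authors' deposited table. The difference between the pair was not tested. Of 21 measured genes of Lrrk2 relatives, Rab substrates and effectors, none was called, and the median was 0.02. The 14-3-3 proteins Ywhaq and Ywhaz, which bind Lrrk2, had the smallest p of this list, at -0.52 and -0.51 (adjusted p 0.220 and 0.249) in the authors' deposited table. With summed CPM made equal, Ywhaq was called lower (adjusted p 0.0448). The Rab substrates Rab10, Rab12 and Rab29 lay at 0.40, 0.36 and 0.23, and Rab8a and Rab35 at -0.29 and -0.06, in the authors' deposited table.

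None of the 3 genes of endosome and lysosome traffic passed the test, and their fold changes were 1.02, 1.15 and 1.22. Vps35 (ENSRNOG00000017612), the core of the retromer coat that returns cargo from endosomes, had implied means of 116 CPM in WT against 118 CPM in Pink1-/- muscle. Its log2 fold change was 0.026 in the authors' deposited table (adjusted p 0.968), and the implied interval, from -0.37 to 0.42, holds no change beyond 1.34-fold. The retromer partners Vps26a, Vps26b and Vps29 lay at 0.18, 0.05 and 0.01 in the authors' deposited table. Of 13 measured genes of retromer, sorting nexins and the actin-nucleating WASH complex, none was called. Their log2 fold changes spanned -0.21 to 0.30, and the ends are Washc4 and Snx3 in the authors' deposited table. The related retriever and commander assembly had no call among 12 genes. Its smallest p-values belonged to Commd9 at 0.55 and Commd4 at 0.61 (adjusted p 0.135 and 0.163) in the authors' deposited table.

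Vps13c (ENSRNOG00000030213), which carries lipids between membranes at contact sites of lysosomes and the endoplasmic reticulum, had implied means of 252 CPM in WT against 290 CPM in Pink1-/- muscle. Its log2 fold change was 0.20 (adjusted p 0.747) in the authors' deposited table, and the implied interval ran from -0.29 to 0.70. Its relatives Vps13d and Vps13a stood at 0.25 and 0.10 in the authors' deposited table. None of the 7 measured VPS13 and bridge-like lipid transfer genes was called, with a median of 0.15. The smallest p-values were those of Atg2a, an autophagosome lipid carrier, at 0.28, and of the gene listed as RGD1307929, an older name of Bltp2 in RefSeq, at 0.26 in the authors' deposited table.

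Atp13a2 (ENSRNOG00000008052), a lysosomal pump that exports polyamines, had implied means of 17.0 CPM in WT against 20.8 CPM in Pink1-/- muscle. Its log2 fold change was 0.29 (adjusted p 0.644) in the authors' deposited table, and the implied interval ran from -0.24 to 0.83. Its relatives Atp13a1, Atp13a3 and Atp13a4 lay at -0.07, -0.08 and -0.06 in the authors' deposited table. Atp13a5 lay at -1.21 (adjusted p 0.169) in the authors' deposited table, and its implied WT mean was 3.09 CPM. None of 14 measured genes of this pump family and of polyamine metabolism was called, and Oaz1, the antizyme that restrains polyamine synthesis, had the smallest p, at 0.66 (adjusted p 0.138) in the authors' deposited table. Atp13a2, Park7 and Dnajc6 lie on rat chromosome 5, as does Pink1 in RefSeq. In the order of tested genes, 27 lie between Pink1 and Atp13a2, 95 between Pink1 and Park7 and 349 between Pink1 and Dnajc6.

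**Figure D2:**
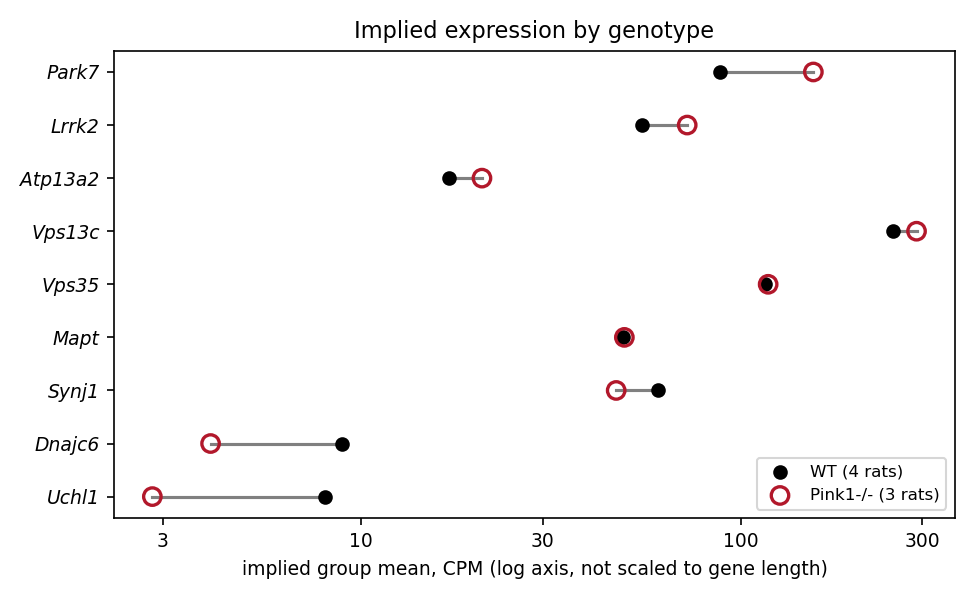
Implied mean expression in CPM (log axis) of the 9 genes in WT (filled black, 4 rats) and Pink1-/- muscle (open red, 3 rats), computed from the deposited mean and fold change with no error bar. CPM is not scaled to gene length, so levels compare between genotypes and not between genes; Park7 moves from 87.9 to 155 CPM and Uchl1 from 8.00 to 2.82 CPM, while the points of Mapt coincide.

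Dnajc6 and Synj1, which help uncoat clathrin vesicles, both lay below 0, and neither passed the test. Dnajc6 (ENSRNOG00000052887) encodes auxilin, the neuronal cochaperone that brings Hspa8 to clathrin coats. Its implied mean was 8.90 CPM in WT against 4.01 CPM in Pink1-/- muscle, 2.22-fold apart, with a log2 fold change of -1.15 (adjusted p 0.154) in the authors' deposited table. The implied interval ran from 1.19-fold to 4.15-fold lower, and a log2 fold change of 1.46 in size would have been needed for a call. Synj1 (ENSRNOG00000002051), the phosphoinositide phosphatase synaptojanin 1, had implied means of 60.4 CPM in WT against 46.9 CPM in Pink1-/- muscle. Its log2 fold change was -0.37 (adjusted p 0.345) in the authors' deposited table, and the implied interval ran from -0.76 to 0.03.

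Each of these has a relative used in many tissues. Gak, the widely expressed auxilin, lay at -0.35 and Synj2 at 0.33 in the authors' deposited table (adjusted p 0.401 and 0.460). Of 25 measured genes of the clathrin coat and its uncoating, 1 fell and none rose, with a median of 0.04. The gene that fell was Dnm1, the neuronal dynamin that pinches vesicles off, at -0.77 (adjusted p 0.0457) in the authors' deposited table. Its call ended with a minimum mean of 1 log2 CPM (adjusted p 0.0518) and with the median of all genes set to 0 (adjusted p 0.0523). Its relatives Dnm2 and Dnm3 lay at 0.15 and -0.35 in the authors' deposited table. Of the endophilins that recruit Synj1, Sh3gl2 of neurons stood at -1.49 (adjusted p 0.0692), and the widely expressed Sh3gl1 at -0.02, in the authors' deposited table. With summed CPM made equal, Sh3gl2 was called lower (adjusted p 0.0244).

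Mapt (ENSRNOG00000005133), which encodes tau, did not differ beyond its error. Its implied mean was 48.9 CPM in WT against 49.3 CPM in Pink1-/- muscle. In the authors' deposited table the log2 fold change was 0.0098 (adjusted p 0.989), and the implied interval ran from -0.39 to 0.41, that is, at most 1.33-fold in either direction. Of 22 measured microtubule-associated proteins and tubulins, 5 fell and none rose, 6 lay above 0 (3 under equal summed CPM) and the median was -0.41. The genes that fell are known from neurons: Tubb3 (-4.05), Stmn3 (-3.87), Tubb4a (-2.84), Stmn2 (-2.75) and Map2 (-1.19) in the authors' deposited table. Tubulin genes resemble each other closely, so reads could be split between them and the values of Tubb3 and Tubb4a are uncertain. Map4, the microtubule-associated protein of many tissues including muscle, lay at 0.17 (adjusted p 0.864) in the authors' deposited table. None of 14 measured tau kinases and phosphatases was called, with Ppp5c at 0.49 and Mark1 at -0.47 having the smallest p in the authors' deposited table.

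**Figure D3:**
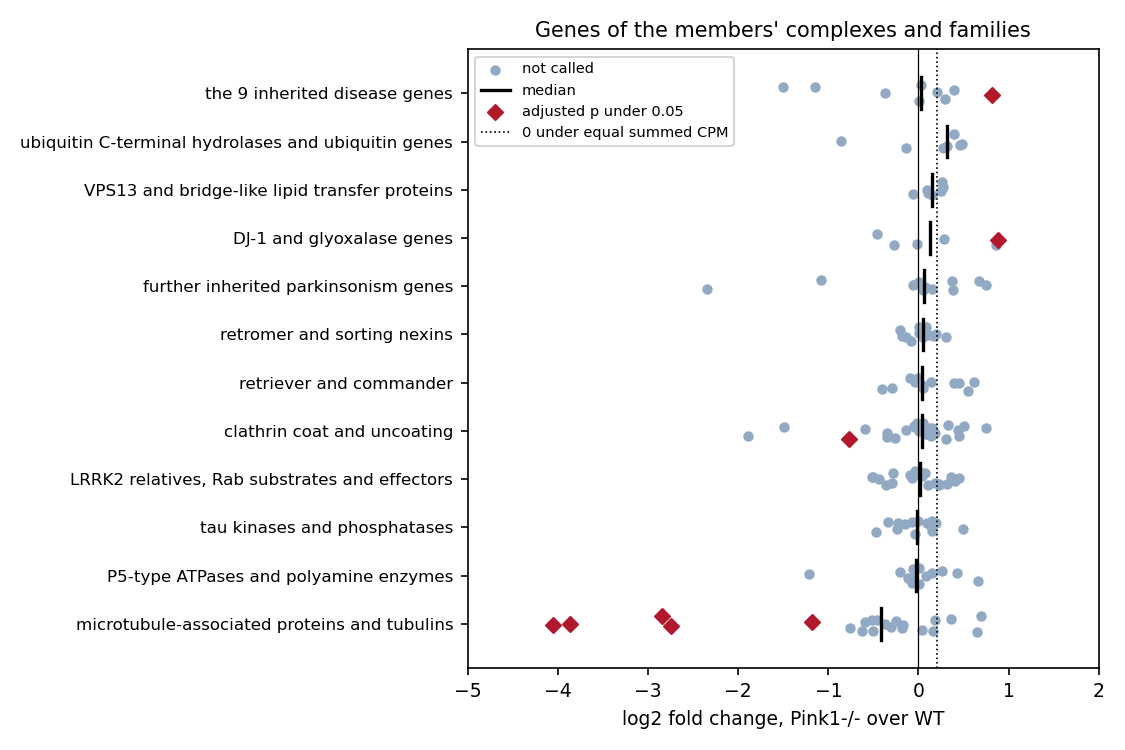
Log2 fold changes of genes in the complexes and families around the 9 genes, with a point for each gene, red diamonds for genes at an adjusted p under 0.05 and a bar at each median; vertical scatter within a row has no meaning. Of the 7 diamonds in the lists, 5 lie among the microtubule genes, where the median is -0.41, and the other medians lie between -0.03 and 0.32.

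Around Park7, 6 genes of the DJ-1 and glyoxalase list were measured, of which 1 rose and none fell. Gatd3a, a mitochondrial protein of the wider DJ-1 superfamily, rose by 0.88 in log2 units (adjusted p 0.0267) in the authors' deposited table. Its implied means were 82.9 CPM in WT against 152 CPM in Pink1-/- muscle. Glo1, the main enzyme that clears methylglyoxal, lay at 0.86 (adjusted p 0.103) in the authors' deposited table. The call of Gatd3a ended under scaling to equal summed CPM (adjusted p 0.0953). Nfe2l2, the transcription factor of the antioxidant response, lay at -0.46 (adjusted p 0.300) in the authors' deposited table.

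Around Uchl1, none of 7 measured ubiquitin hydrolase and ubiquitin genes was called. The hydrolases Uchl3 and Uchl5 lay at 0.27 and 0.46 in the authors' deposited table, and Bap1 at 0.48 (adjusted p 0.214). Uchl3 shares its symbol with another entry, of which the better expressed was used.

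Of 12 measured further genes of inherited parkinsonism or dopamine synthesis and transport, none was called and the median was 0.06. Spr, an enzyme of tetrahydrobiopterin synthesis, lay at 0.75 (adjusted p 0.0878) in the authors' deposited table. The dopamine transporter gene Slc6a3 lay at -2.34 (adjusted p 0.0879) in the authors' deposited table; its implied WT mean was only 0.980 CPM, and it was called lower under scaling to equal summed CPM (adjusted p 0.0447). Over all 11 lists 7 of 153 genes were called (4.58%), beside 3.05% of all genes.

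Markers of muscle fibres and of neurons were read in the same comparison. All 10 skeletal muscle markers were measured, at 379 to 32764 implied CPM in WT, in keeping with the label of the tissue. All 10 lay above 0 (9 under equal summed CPM) with none called, and their median of 0.89 stands beside 0.82 for Park7 and 0.88 for Gatd3a in the authors' deposited table. Their implied CPM summed to 47986 in WT and 85957 in Pink1-/- muscle. The implied interval of Park7 overlapped that of all 10, but their median implied SE was 0.48, so their intervals are wide. Such overlap was not counted for other genes and does not set Park7 apart. The part of muscle content in the rise of Park7 was not tested.

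All 11 measured neuron markers lay below 0, and 9 fell, with a median log2 fold change of -3.20. Tubb3, Stmn2 and Map2 also stand in the microtubule list above, so the counts of those lists are not separate. The implied CPM of the 11 markers summed to 154 in WT and 40.4 in Pink1-/- muscle, of which Map2 made up 70.7 and 31.1 CPM. The synaptic proteins Snap25 (-5.42) and Syt1 (-4.19) and the neurofilaments Nefl (-4.06) and Nefm (-3.13) were among those that fell in the authors' deposited table, and the implied Pink1-/- level of each was under 1 CPM. Uchl1, Dnajc6, Sh3gl2 and Dnm1, all strongly expressed in neurons, lay on the same side of 0 in the authors' deposited table. These 4 come from several lists and were not set beforehand as neuron markers. Mapt, also strongly expressed in neurons, lay at 0.0098 in the authors' deposited table. The part of neuronal content in these values was not tested. The implied 95% interval of 9 of the 11 neuron markers lay wholly below that of Mapt, and of 8 below that of Synj1. For Dnajc6 the count was 4 and for Uchl1 it was 1. It was also 9 for Vps35, 10 for Atp13a2 and Vps13c and 11 for Park7 and Lrrk2, so it does not set Mapt apart. The counts also depend on the width of each interval. The implied SE was 0.55 for Uchl1 and 0.46 for Dnajc6 against 0.21 for Mapt. The genes come from the same libraries, and the differences themselves were not tested.

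Among genes of the central nervous system, 5 of 7 measured markers fell, with Gabra6, a receptor subunit of cerebellar granule cells, at -7.17 and Mobp, of oligodendrocytes, at -6.56 in the authors' deposited table. Their implied levels in Pink1-/- muscle were 0.0247 and 0.0427 CPM. The other 2 lay above 0 and were not called, Aqp4, a water channel that fast muscle fibres also make, at 0.27 and Slc17a7, a glutamate transporter of synaptic vesicles, at 0.57 in the authors' deposited table. The implied CPM of the 7 summed to 198 in WT and 214 in Pink1-/- muscle, of which Aqp4 made up 168 and 203 CPM. Of 9 Schwann cell markers 3 fell, among them Mbp by 1.30 and S100b by 1.42 in the authors' deposited table, with a median of -0.61 over the list. In the neuroendocrine list 2 of 4 measured genes fell, Vip (-10.94) and Scg2 (-8.46) in the authors' deposited table. Squamous epithelium had 2 of 8 markers lower, Krt13 by 1.30 and Dsc3 by 2.35 in the authors' deposited table, and a median of -1.25. No marker of macrophages and leukocytes, where Lrrk2 is well expressed, was called. All 8 lay above 0 (4 under equal summed CPM) with a median of 0.20, and Cd163 and Ptprc had the smallest p, at 0.43 and 0.31 in the authors' deposited table. Fibroblast and endothelial markers had no call among 5 genes each, with medians of -0.55 and 0.12; Col1a1 (-0.41), Pdgfra (-0.58), Cdh5 (0.38) and Kdr (-0.23) had their smallest p in the authors' deposited table.

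**Figure D4:**
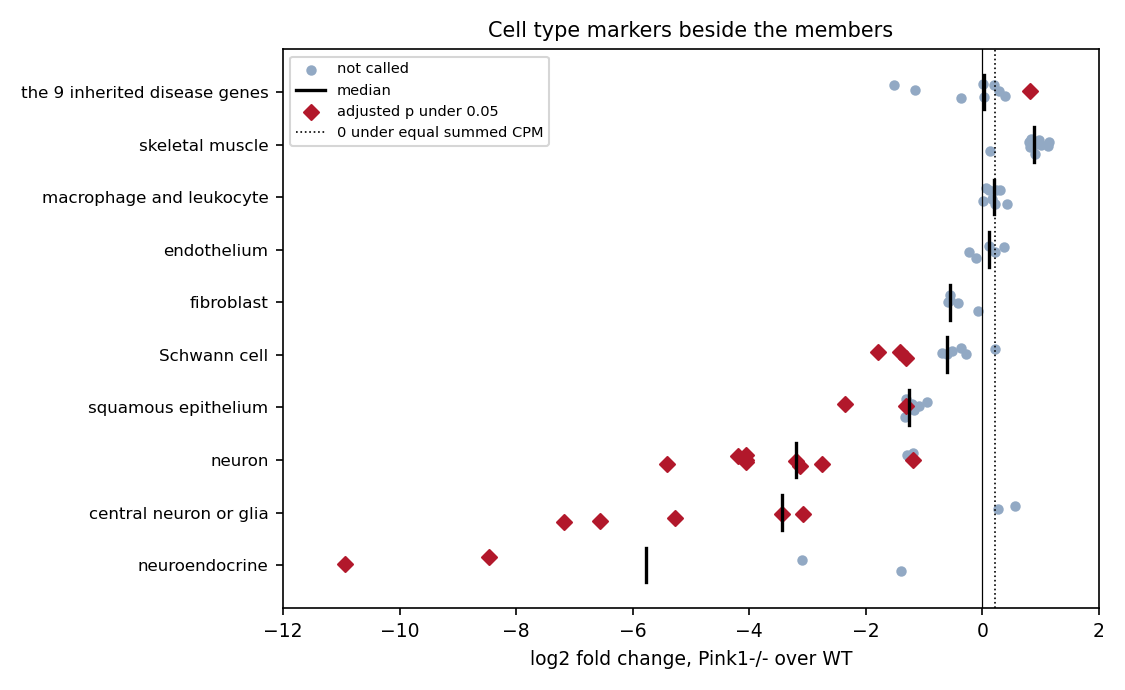
Log2 fold changes of cell type markers beside the 9 genes, drawn as points with red diamonds for genes at an adjusted p under 0.05 and a bar at each median. Skeletal muscle markers centre at 0.89 and neuron markers at -3.20, and the 9 genes spread from -1.51 to 0.82 between them.

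The calls among the 9 genes depended on how the table was scaled and tested. As deposited the single call was Park7, and under scaling to equal summed CPM it was Uchl1, so the count of 1 refers to different genes. That scaling put the median of all genes at -0.23 and left 3 of the 9 above 0, Park7, Lrrk2 and Atp13a2. Of all called genes it turned the split from 201 higher and 247 lower to 63 higher and 568 lower. Dnajc6 and Synj1 had adjusted p-values of 0.0594 and 0.0693 there. Stricter settings took away calls of related genes too: of the 7 in the related lists, 4 stood under Benjamini-Yekutieli adjustment, and 0 with likelihood ratios divided by 1.96. Of the 9 neuron markers that fell, 5 and 0 were called under these settings.

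**Figure D5:**
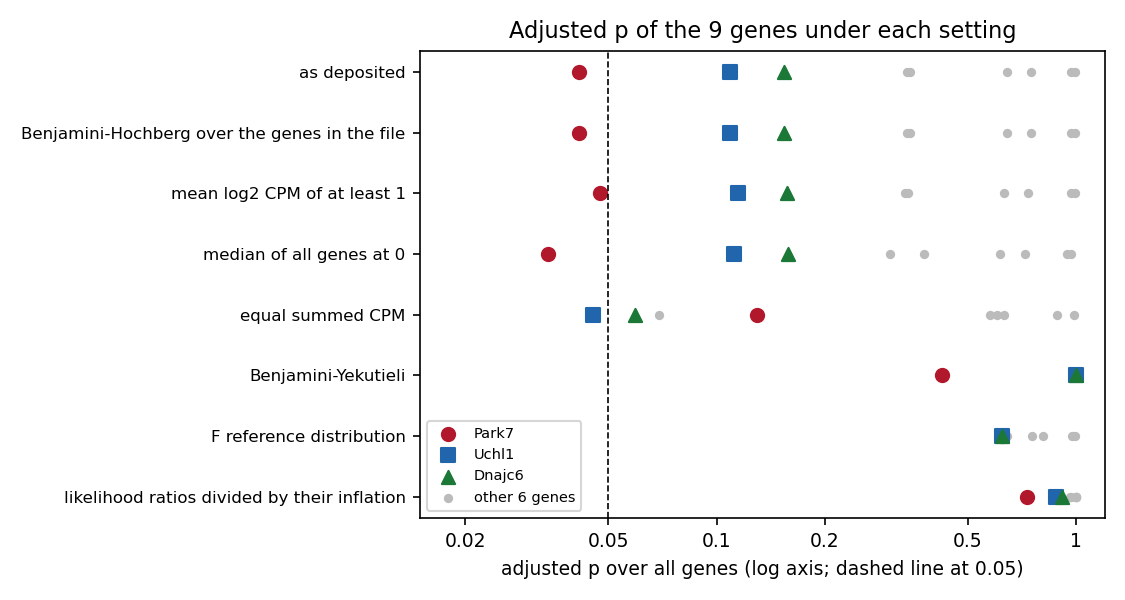
Adjusted p over all genes (log axis, dashed line at 0.05) of the 9 genes under the deposited analysis and 7 alternatives, with Park7, Uchl1 and Dnajc6 in colour and the other 6 in grey. Park7 lies left of the line under 4 settings, between 0.0339 and 0.0474, Uchl1 under equal summed CPM alone at 0.0452, and no gene under the last 3 settings.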

How the data were processed

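Expression was measured by RNA sequencing of thyroarytenoid muscle from 4 WT and 3 Pink1-/- rats, with each library a separately numbered animal. Per the labels' protocols, RNA came from frozen muscle and libraries from a TruSeq RNA kit; whether counting used strand is not stated, so overlapping and antisense genes cannot be told apart. The authors used RSEM and edgeR 3.9, per the submitters' processing notes, and the sources used here name no aligner, build, annotation, filter or scaling. The authors' deposited table gives, per the file headers, for 14702 genes the log2 fold change, the log2 of mean CPM, the likelihood ratio as a score, and the p-value before and after adjustment. The planned test on counts needed values per library, so the authors' deposited edgeR values stand as the result.

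The deposited p equals the chi-square tail of the likelihood ratio with 1 degree of freedom, within a relative 8.29e-13. Each SE was taken as the absolute log2 fold change over the root of the likelihood ratio, with 95% intervals from the normal quantile. They are poor for genes near 0 counts, whose fold changes also depend on the prior count. Implied CPM per genotype assume equal library sizes. The size needed for a call is the SE times the root of the likelihood ratio at the largest called p, 0.00152. Python 3.11.15, scipy 1.17.1 and matplotlib 3.10.9 were used, and the recalculation was tested on simulated data.

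The 9 genes and the 11 lists of related genes (153 of 164 found) and 9 marker lists (67 of 73 found) were chosen with earlier results of these data known. Of the found genes 6 were matched by an older name in RefSeq. From each list the text names called genes, up to 6 and by smallest p, and otherwise up to the 2 with the smallest p, plus relatives of the 9; a few genes the rule names are not reported here. Likeness of pattern across rats needs values per library and was not examined. Alternatives were scaling to equal summed CPM, centring on the median gene, dividing likelihood ratios by their inflation, an F distribution with 1 and 5 degrees of freedom, a minimum mean of 1 log2 CPM, and Benjamini-Hochberg or Benjamini-Yekutieli adjustment over the genes in the table.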

Additional observations from a re-analysis of the deposited data

How the results depend on the processing

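No paired analysis was possible because the only table holds 1 comparison and no values per rat; leaving out a rat, other normalizations of counts and DESeq2 were not run for the same reason. Of 63 values of the 9 genes under the 7 alternatives, 55 kept their direction and their side of the threshold. Much of that count was fixed in advance. Division by the inflation, the F distribution and Benjamini-Yekutieli adjustment keep the fold changes and can only raise the adjusted p. An uncalled gene therefore could not change there. Benjamini-Hochberg adjustment over the genes in the table all but repeats the deposited adjustment. Under scaling to equal summed CPM, Vps35 (-0.19), Mapt (-0.20) and Vps13c (-0.0092) changed sign, Uchl1 (-1.72) became called, and Park7 (0.61) lost its call. Park7 also lost its call with likelihood ratios divided by their inflation (adjusted p 0.730), with the F distribution (0.623) and with Benjamini-Yekutieli adjustment (0.422); over its 7 alternatives the adjusted p ran from 0.0339 to 0.730. These 3 settings called 0 of the 9 genes. At an unadjusted p under 0.05 the inflation setting held 1 of them, Park7, and the F distribution held 2, Park7 and Uchl1. Over all genes the deposited edgeR table called 448, Benjamini-Yekutieli adjustment 127, division by the inflation 14 and the F distribution 0, with 1055 genes at an unadjusted p under 0.05 in the last. The F distribution ignores the spread that edgeR shares between genes. Its smallest adjusted p over all genes was 0.298, so not even Pink1 was called. The lost call of Park7 under the F distribution therefore says nothing particular about Park7. The related lists had 7 called genes as deposited, 12 under equal summed CPM, 4 under Benjamini-Yekutieli adjustment, and 0 under division by the inflation or the F distribution. Where no cause is evident from the construction of a setting, the cause was not tested. Depth is unknown here, and the wide intervals of Uchl1 and Dnajc6 limit what can be said of them.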
